A study of Drosophila melanogaster with 2 samples.

Results

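Brinker binding at divergent promoters was described from chromatin immunoprecipitation sequencing of whole wandering-stage Drosophila melanogaster larvae. The regions were the 263 peaks whose summit lay within 500 bp of a plus-strand transcription start site (TSS) of 1 protein-coding gene and within 500 bp of a minus-strand TSS of another. They were 7.78% (95% Wilson interval 6.93 to 8.73) of the 3380 peaks on the 6 chromosome arms in the list from the irreproducible discovery rate (IDR) procedure, which compares how replicates rank their peaks. All 3380 are also the 3380 strongest nuclear entries of the list called on the pooled replicates. They were 19.1% (17.1 to 21.3) of the 1375 peaks near a protein-coding TSS. The reference classes were the 1112 peaks near TSSs of 1 strand, called one-strand peaks here, and the 2005 peaks with no protein-coding TSS within 500 bp.

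All samples came from 1 line, strain brk-GFP, in which Brinker carries green fluorescent protein at its C terminus, and an antibody against that tag was used. Males and females were pooled and the whole body was sampled, so cell types cannot be told apart. The single group had 2 biological replicates, numbered 3 and 4. No other genotype, stage or treatment was analysed here, and peak lists carry no read depth. Signal means the value the authors deposited for a peak; its scale is not stated, and ratios of it between lists assume a shared scale. Wilson and Poisson intervals cover counting error only, and regions are not replicates.

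Brinker is a transcriptional repressor that holds down genes activated by the BMP ligand Dpp, and in the wing disc a gradient of Brinker opposite to that of Dpp sets where those genes are on. It binds a short GC-rich sequence and recruits the co-repressors Groucho and CtBP. Divergent promoters are stretches from which neighbouring genes are transcribed in opposite directions. They are common in the compact fly genome, often serve broadly expressed genes, and carry core promoter elements such as the DNA replication-related element (DRE) bound by Dref.

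The sequences below run from just after the minus-strand TSS to just before the plus-strand TSS, on the plus strand, 5′ to 3′. They come from the Release 6 RefSeq genome, the assembly of dm6, with coordinates counted from 1. They are shown because they are what lies between the start sites at a strong peak. The first 4 belong to the strongest peaks among the 69 with a summit between the TSSs, no annotated protein-coding exon in the interval and at most 300 bp between the TSSs. The others were added because they hold a DRE, a Motif 1 element or a Brinker site. Capitals mark the DRE (TATCGATA), the core bound by the insulator protein BEAF-32 (CGATA or its complement TATCG, contained in the DRE), Motif 1 (GGTCACAC), the E-box CAGCTG and the Brinker site (GGCG followed by a pair of pyrimidines), on either strand. Each name gives the plus-strand gene and then the minus-strand gene.
CG17294/CG13390, chr2L:8376798-8377034: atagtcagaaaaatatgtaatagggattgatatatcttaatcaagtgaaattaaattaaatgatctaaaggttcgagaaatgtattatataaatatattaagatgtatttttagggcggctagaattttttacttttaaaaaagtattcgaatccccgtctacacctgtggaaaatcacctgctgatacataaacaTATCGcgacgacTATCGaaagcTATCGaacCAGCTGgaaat
CG3552/CG3437, chr3L:9457670-9457911: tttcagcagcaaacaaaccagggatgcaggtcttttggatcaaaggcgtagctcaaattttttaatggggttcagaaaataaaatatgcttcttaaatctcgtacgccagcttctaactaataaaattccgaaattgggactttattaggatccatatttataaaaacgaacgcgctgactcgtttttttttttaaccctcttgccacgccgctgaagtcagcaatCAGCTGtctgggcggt
Bulli/CG10147, chr3L:6488425-6488680: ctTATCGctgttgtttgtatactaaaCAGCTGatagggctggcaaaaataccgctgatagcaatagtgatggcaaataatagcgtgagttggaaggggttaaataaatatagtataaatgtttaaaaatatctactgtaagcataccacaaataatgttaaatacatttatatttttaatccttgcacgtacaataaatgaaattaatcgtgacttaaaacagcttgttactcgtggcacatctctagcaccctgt
sds22/Brf, chr3R:17391338-17391593: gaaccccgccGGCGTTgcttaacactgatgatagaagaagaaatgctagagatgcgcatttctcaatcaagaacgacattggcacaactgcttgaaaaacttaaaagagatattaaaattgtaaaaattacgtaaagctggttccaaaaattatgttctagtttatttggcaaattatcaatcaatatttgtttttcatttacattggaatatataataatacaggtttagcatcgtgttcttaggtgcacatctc
SLIRP2/Mkk4, chr3R:8650797-8651083: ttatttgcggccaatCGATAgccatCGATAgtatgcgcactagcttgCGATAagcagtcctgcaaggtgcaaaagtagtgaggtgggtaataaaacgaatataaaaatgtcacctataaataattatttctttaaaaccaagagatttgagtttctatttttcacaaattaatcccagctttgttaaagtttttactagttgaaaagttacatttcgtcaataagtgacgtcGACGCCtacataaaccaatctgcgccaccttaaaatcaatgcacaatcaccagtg
Shc/Atat, chr3L:9426759-9427009: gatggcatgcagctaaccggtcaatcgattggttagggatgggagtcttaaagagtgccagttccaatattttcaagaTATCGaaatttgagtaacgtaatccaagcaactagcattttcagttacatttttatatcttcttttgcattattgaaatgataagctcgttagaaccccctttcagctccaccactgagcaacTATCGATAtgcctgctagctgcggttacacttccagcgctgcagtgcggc
CG18749/CG9636, chr3R:8243793-8244054: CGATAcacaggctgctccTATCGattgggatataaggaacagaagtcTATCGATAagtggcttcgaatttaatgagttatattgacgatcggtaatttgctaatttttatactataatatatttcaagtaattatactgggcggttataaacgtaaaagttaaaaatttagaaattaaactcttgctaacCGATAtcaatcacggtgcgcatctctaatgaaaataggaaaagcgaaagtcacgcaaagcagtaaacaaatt
wac/DIP2, chr3L:257955-258175: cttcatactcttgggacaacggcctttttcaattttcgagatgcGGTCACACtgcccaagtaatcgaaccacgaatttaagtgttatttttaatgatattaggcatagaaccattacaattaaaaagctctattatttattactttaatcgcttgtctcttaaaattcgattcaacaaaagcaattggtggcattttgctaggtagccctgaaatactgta
oaf/Slh, chr2L:2492672-2492954: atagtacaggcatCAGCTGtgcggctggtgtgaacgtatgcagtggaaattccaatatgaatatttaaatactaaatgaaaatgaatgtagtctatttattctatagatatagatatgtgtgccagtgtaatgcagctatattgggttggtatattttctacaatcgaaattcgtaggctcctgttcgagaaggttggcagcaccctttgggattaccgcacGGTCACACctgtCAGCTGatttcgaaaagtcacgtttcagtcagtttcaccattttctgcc

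In the CG17294/CG13390 interval G and C make up 30.8% of bases and no Brinker site is found, and its peak had a signal of 715 in the IDR list. The Bulli/CG10147 interval, with 33.2% G and C, has an E-box and a BEAF-32 core in its left part, and its peak had 487. Bulli encodes a subunit of the guanine nucleotide exchange factor that activates Rab7. The sds22/Brf interval holds a Brinker site near its left end, more than 100 bp from the summit, and its peak had 457. sds22 encodes a regulatory subunit of protein phosphatase 1 and Brf a subunit of TFIIIB, which serves RNA polymerase III. The SLIRP2/Mkk4 interval, beside the gene of a kinase of the JNK cascade, has 3 BEAF-32 cores and a Brinker site, and its peak had 371. The Shc/Atat interval, whose peak had 311.2, holds a DRE that lies beyond the right end of the peak. The DRE of CG18749/CG9636 stands within 100 bp of the summit of a peak of 311.1. Atat encodes an α-tubulin acetyltransferase. The Motif 1 elements of wac/DIP2 and oaf/Slh lie in peaks of 235 and 155, well below the strongest. Both elements are more than 100 bp from the summit.

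The strongest divergent-promoter peak, chr3L:21304380-21304741, lay between CG7632 and CG11309. Its signal was 1024 in the IDR list, 450.0 in replicate 3 and 565 in replicate 4. The next on the list lay beside CG8320 and Pex11ab, a peroxisome biogenesis gene, with 781 in the IDR list, 349 in replicate 3 and 425 in replicate 4. Of the 12 strongest, 11 ranked among the 100 strongest nuclear entries of both replicates.

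The Ssl1/Chro peak had a signal of 701 in the IDR list, 405 in replicate 3 and 293 in replicate 4. Ssl1 is a subunit of TFIIH, and Chro encodes Chromator, a chromodomain protein of polytene interbands. The ver/Gcn5 peak had 572 in the IDR list, 295 in replicate 3 and 277 in replicate 4. ver encodes a telomere-capping protein and Gcn5 a histone acetyltransferase. The CG9004/mRpL23 peak, beside a mitochondrial ribosomal protein gene, had 517 in the IDR list, 255 in replicate 3 and 256 in replicate 4. The bves/Stt3A peak had 535 in the IDR list, 249 in replicate 3 and 287 in replicate 4, and Stt3A is a catalytic subunit of the oligosaccharyltransferase. The Dp1/imd peak had 496 in the IDR list, 242 in replicate 3 and 264 in replicate 4. imd encodes the adaptor of the immune deficiency pathway. In each of these peaks the replicates stood high together.

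The peak between Mtl and CG5611 had a signal of 766 in the IDR list, 397 in replicate 3 and 355 in replicate 4. The peak beside CG8360 and CG8372 had 771, 395 and 378 in the same lists. The peak of CG3552/CG3437 was the exception among the 12. It had 606 in the IDR list and 297 in replicate 3, but only 15.8 in replicate 4, where the overlapping entry had its summit 200 bp away.

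Divergent promoters held more summits per length than one-strand promoters among the strong peaks, and fewer among the weak entries of the pooled list. The arms have 1.67 Mb within 500 bp of TSSs on both strands, 13.7 Mb within 500 bp of TSSs on 1 strand, and 118 Mb elsewhere. IDR summits numbered 157 per Mb (exact Poisson interval 139 to 177) in the both-strand zone, 81.4 per Mb (76.7 to 86.3) in the one-strand zone and 16.9 per Mb (16.2 to 17.7) elsewhere. The both-strand zone thus held 1.93 times the density of the one-strand zone. Among the 3380 strongest nuclear entries of each replicate alone, that ratio was 2.53 in replicate 3 and 1.99 in replicate 4. In the both-strand zone the density was 225 per Mb in replicate 3 and 153 per Mb in replicate 4, a wider gap than in the one-strand zone, at 89 and 76.7 per Mb.

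The pooled list, called on both replicates together, extends far below the IDR peaks. Among its 1000 strongest entries the both-strand zone held 2.75 times the density of the one-strand zone, at 70.5 against 25.6 summits per Mb. The ratio was 1.55 for ranks 1001 to 3380, 0.809 for ranks 3381 to 10000, 0.514 for ranks 10001 to 20000 and 0.342 for the rest. In the last class the both-strand zone had 23.9 summits per Mb (17.1 to 32.5), below the 75.8 per Mb (74.3 to 77.4) of the genome away from start sites. The list lengths are fixed, so these are shares of a set number of entries.

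**Figure D1:**
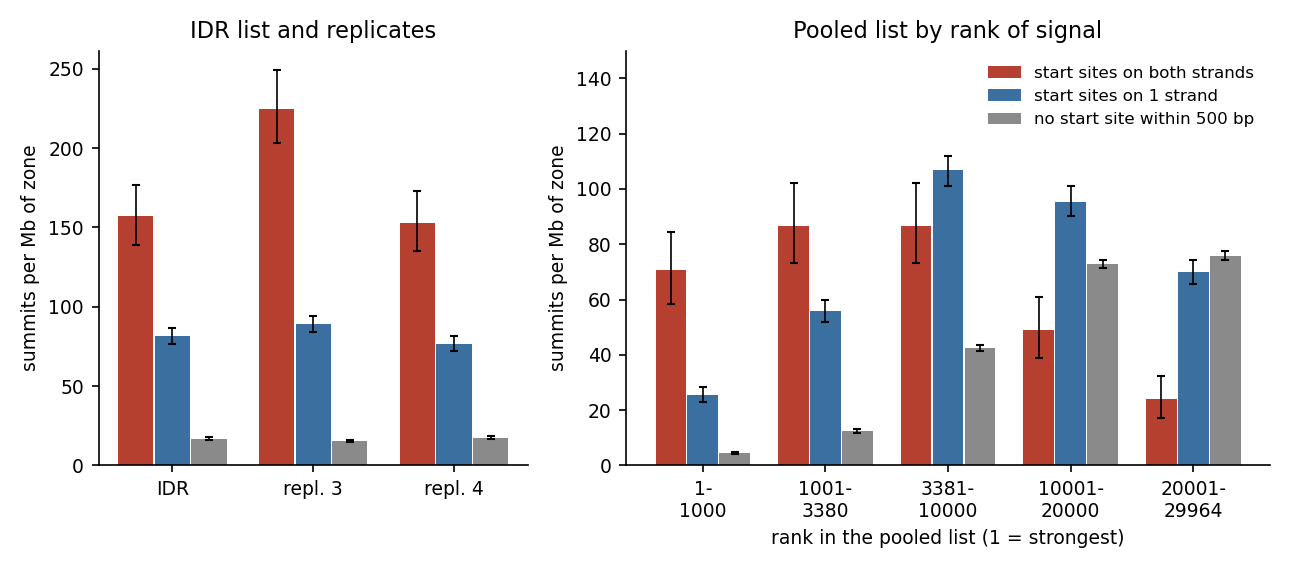
Summits per Mb (y axis) within 500 bp of TSSs on both strands (red), on 1 strand (blue) and elsewhere (grey), with exact Poisson 95% intervals as bars; the left panel gives the IDR list and the strongest entries of each replicate, the right panel the pooled list by rank. The red bar is the tallest in each list on the left (157 per Mb in the IDR list) and the lowest among the weakest pooled ranks (23.9 per Mb).

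Within the IDR list, whose peaks are the top pooled ranks just described, the share can be read in finer steps. Of its 676 strongest peaks, 92 (13.6%, 11.2 to 16.4) were at divergent promoters. The next groups of 676, in order of falling signal, held 50, 48, 40 and 33 (4.88%, 3.5 to 6.78, in the weakest). The median signal of divergent-promoter peaks was 147 (quartiles 107 and 223), against 123 (99.7 and 176) for one-strand peaks and 116 (95.5 and 161) for peaks with no start site. The quartiles overlap widely. Taken within each replicate's own strongest entries, the medians were 78.9, 69.8 and 67.7 in replicate 3 and 75.6, 63 and 58.2 in replicate 4, in the same order of classes.

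Counted by gene, the difference is smaller and depends on the unit. A gene was called paired when a TSS of a protein-coding gene on the other strand lay within 1000 bp of one of its own. Of 5141 paired genes, 654 (12.7%, 11.8 to 13.7) had an IDR summit within 500 bp of a TSS, against 804 of 8804 unpaired genes (9.13%, 8.55 to 9.75) and 10.5% of all 13945 protein-coding genes. Among genes with 1 annotated TSS the shares were 9.29% of paired genes and 5.5% of unpaired genes. One summit can serve both genes of a pair, so the gene counts are not independent. Of 2720 opposite-strand pairs, 262 had a divergent-promoter summit, which is 9.63% of pairs. In the replicate lists, 17.9% of paired and 9.67% of unpaired genes had a summit in replicate 3, and 12.4% and 8.52% in replicate 4.

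Where both replicates had an entry, their signals differed by about as much as at other peaks. Among the 232 such peaks Spearman's rho between the replicate signals was 0.772, against 0.622 across 1043 one-strand peaks and 0.587 across 1969 peaks with no start site. These peaks share libraries, so the rho values are descriptions. In 11 gene pairs with 2 peaks close together, both peaks matched the same replicate entries, which are counted for each peak. Replicate 3 over replicate 4 gave log2 values with a median of 0.05 and an SD of 0.564, against SDs of 0.563 at one-strand peaks and 0.546 at peaks with no start site. Of the 232, 14 differed by more than 2-fold, against 83 of 1043 one-strand peaks and 133 of 1969 peaks with no start site. The Bacc/Pgk peak, beside the gene of the glycolytic enzyme phosphoglycerate kinase, had 25.6 in replicate 3 and 88.0 in replicate 4. The Nasp/CG9801 peak, beside the gene of a histone chaperone, had 85.1 in replicate 3 and 18.2 in replicate 4.

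Replicate 4 lacked an entry at some divergent promoters. No replicate 4 entry overlapped 31 of the 263 peaks (11.8%, 8.43 to 16.2), against 68 of 1112 one-strand peaks (6.12%, 4.85 to 7.68) and 35 of 2005 peaks with no start site (1.75%, 1.26 to 2.42). In replicate 3 the counts were 0, 1 and 1. The contrast between the promoter classes depended on this match. With the replicate summit also required within 100 bp, replicate 4 lacked 38 (14.4%, 10.7 to 19.2), 131 (11.8%, 10 to 13.8) and 121 (6.03%, 5.07 to 7.16). The intervals of the 2 promoter classes then overlap. In replicate 3 the counts by that match were 12, 58 and 92. The koko/Wdr37 peak had 385 in the IDR list and 185 in replicate 3. The fbl/CG5498 peak, beside the pantothenate kinase gene fumble, had 283 in the IDR list and 151 in replicate 3. The GNBP1/GNBP2 peak, beside genes of β-glucan recognition proteins of innate immunity, had 278 in the IDR list and 120 in replicate 3. In all 3 the nearest replicate 4 summit was more than 2 kb away.

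For the 31 peaks, the IDR signal was a median of 2.01 times that in replicate 3, close to the 1.95 at peaks with an entry in both. Their median IDR signal was 144, against 148 at peaks with an entry in both. Whether reads were present at these places in replicate 4 was not tested, since no read coverage was used here. Of all 263 peaks, 183 (69.6%, 63.8 to 74.8) overlapped one of the 3380 strongest entries in both replicates, counting peaks that share an entry separately.

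**Figure D2:**
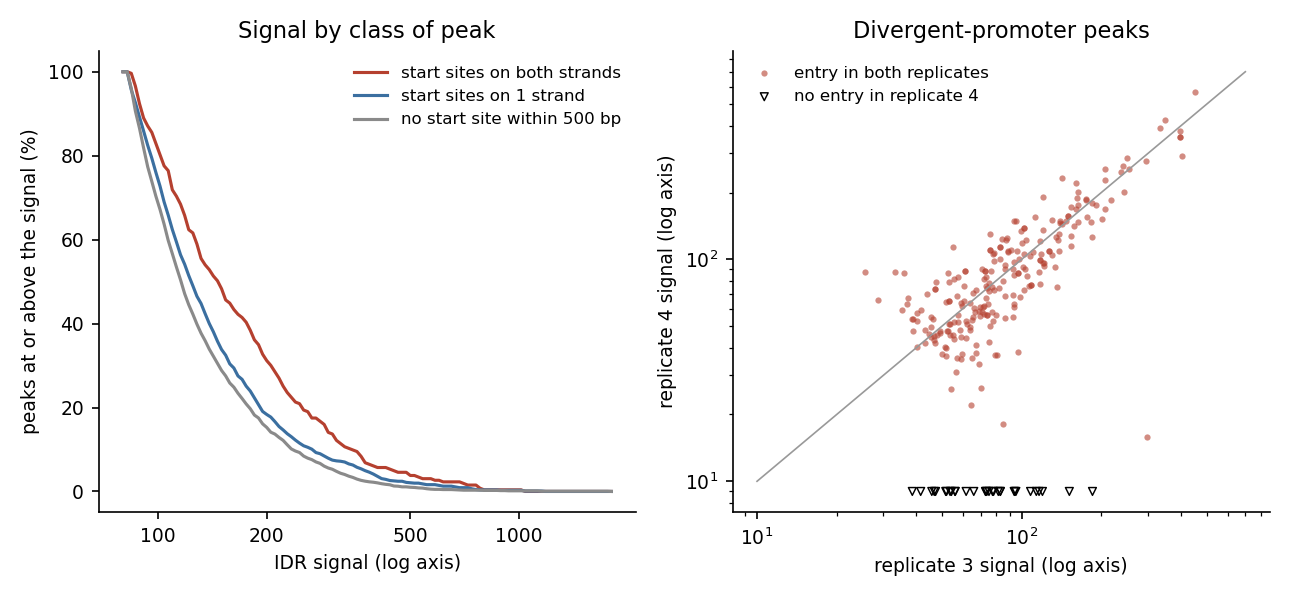
The left panel gives the percent of IDR peaks (y axis) at or above each signal (x axis, log) for peaks near TSSs on both strands (red), on 1 strand (blue) and with none (grey). The right panel plots the replicate 4 signal against the replicate 3 signal (both log axes) of the 263 divergent-promoter peaks, where the line marks equal values and the 31 triangles at the bottom had no entry in replicate 4 and are not placed by a value there.

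The genes at these peaks were arranged head to head, as were 2615 of all 2720 opposite-strand pairs. In 255 of the 263 peaks the nearest pair of TSSs pointed away from each other, with the minus-strand TSS on the left. In the other 8 the 5′ ends overlapped. The TSSs were a median of 302 bp apart (quartiles 221 and 413), and the widest gap was 849 bp, between Prtl99C and Atg16, an autophagy gene. Counted by pair, the median gap was 287 bp with a divergent-promoter summit and 303 bp without one. The closest head-to-head TSSs were 21 bp apart at Pitslre, which encodes a cyclin-dependent kinase, and CG4042. There were 249 distinct pairs, and 13 peaks had more than 2 genes within reach.

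Most summits lay between the start sites. In 213 of 263 peaks (81%, 75.8 to 85.3) the summit fell between the TSSs. Their place along the way from the minus-strand to the plus-strand TSS had quartiles of 0.357 and 0.669, so the summits were spread widely over the interval. The rule allows this window by construction, since both TSSs must be near. The nearer TSS was a median of 108 bp away and the farther 222 bp. It was the plus-strand TSS in 140 peaks and the minus-strand TSS in 123. One-strand peaks had their summit upstream of the nearest TSS in 936 of 1112 cases (84.2%, 81.9 to 86.2), a median of 177 bp away.

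At head-to-head genes the share of summits between the TSSs rose with the gap, which the rule sets in part. At gaps above 200 and up to 300 bp, 64 of 73 summits lay between the TSSs, a median of 44 bp from the midpoint. At gaps above 400 and up to 600 bp, 58 of 60 did, a median of 77.2 bp from the midpoint. At gaps up to 100 bp only 5 of 26 lay between the TSSs, and the nearer TSS was a median of 82.5 bp away, so most of these summits lay over a transcribed 5′ end. By annotation 177 of the 263 summits (67.3%) were outside protein-coding genes, 43 in an intron and 43 in a 5′ UTR, with median signals of 151, 141 and 116.

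Neither the median signal nor the share of pairs with a summit rose or fell steadily with the gap. With gaps taken in steps ending at 100, 200, 300, 400, 600 and 1000 bp, the median signals were 162, 116, 186, 149, 126 and 153. Of all 529 pairs with a gap above 200 and up to 300 bp, 70 (13.2%, 10.6 to 16.4) had a divergent-promoter summit, against 26 of 354 pairs (7.34%, 5.06 to 10.5) above 100 and up to 200 bp. The share was 10% at gaps up to 100 bp, 12.9% up to 400 bp, 11.7% up to 600 bp and 8.65% where the 5′ ends overlap. Pairs more than 600 bp apart had one in 2.18% of cases. At all gaps the window within 500 bp of both TSSs shrinks as the gap widens, and the shares are not corrected for it. Whether summits per length of window follow the gap was not tested.

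**Figure D3:**
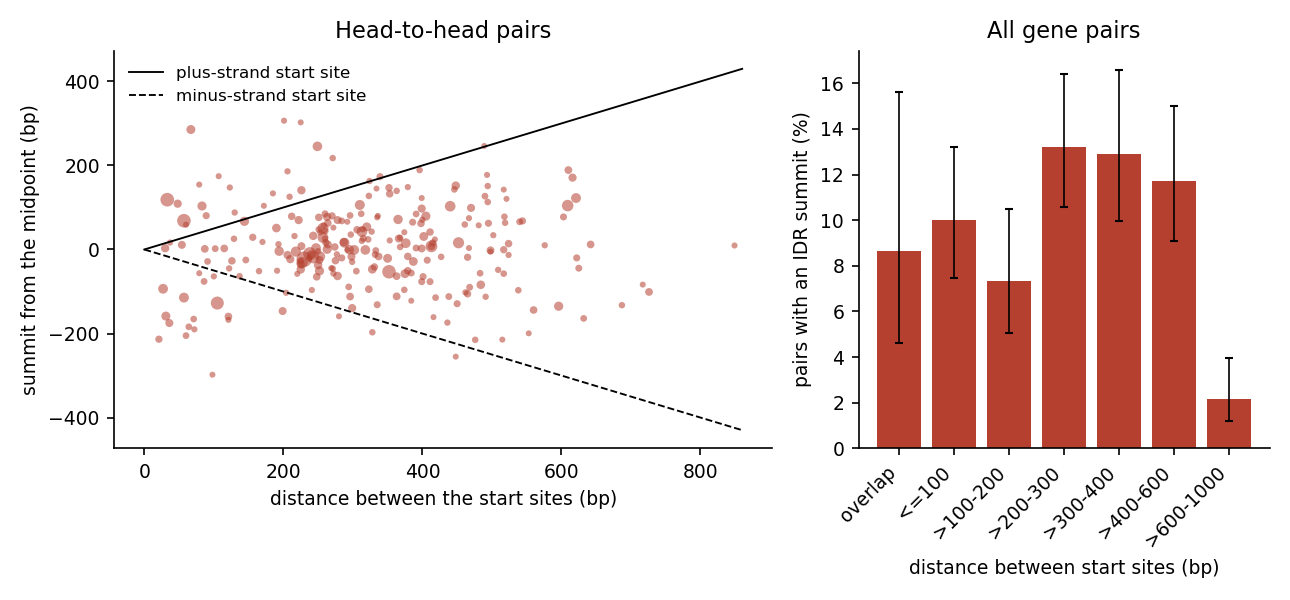
The left panel places each summit at head-to-head TSSs by the distance between the TSSs (x axis, bp) and the distance from their midpoint (y axis, bp), with dot area rising with signal and lines at the TSSs. The right panel gives the percent of all 2720 opposite-strand pairs with a divergent-promoter summit by gap, with Wilson 95% intervals. Most dots fall between the lines once the gap passes 200 bp.

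The deposited summits limit how finely position can be read. In 197 of the 263 peaks (74.9%) the summit was within 1 bp of the middle of the interval, and 193 intervals had the same width of 416 bp. Of the 14 pairs with 2 divergent-promoter peaks, 11 had summits 199 to 263 bp apart in intervals of that scale. Mtl/CG5611 had peaks of 766 and 176, with summits 200 bp apart. In wac/DIP2, where wac encodes a subunit of the augmin complex, the peaks were 235 and 115.4, with summits 206 bp apart. The other 3 pairs had peaks 1999 to 2459 bp apart at alternative TSSs. These were Dp1/imd (496 and 156), Vti1b/Vha100-2 (294 and 141) and Dic1/Elp6 (291 and 153).

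The base composition dipped at the summit. In the 50 bp on either side, G and C made up 29.8% to the left and 30.8% to the right, against 47% and 47.7% in the outermost 50 bp of the kilobase around it. At one-strand peaks the same bins had 34.5% and 34.4% against 41.9% and 42%. Within 100 bp of the summit, divergent-promoter peaks averaged 31.9% G and C (SD 6.22 over peaks) and one-strand peaks 36% (SD 7.58). Pairs without a summit are here the 2458 with no IDR summit within 500 bp of TSSs of both genes. The same window at their midpoints averaged 34.5% (SD 8.43). At the midpoints of the 262 pairs with a summit it averaged 32.6% (SD 8.46), so part of that contrast goes with the centring.

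The DRE, the BEAF-32 core, the E-box and the TATA box letters were each more frequent at divergent-promoter peaks than at one-strand peaks. A motif was counted if it lay on either strand within 100 bp of the summit. The DRE was present in 33 of 263 windows (12.5%, 9.08 to 17.1), against 62 of 1112 one-strand windows (5.58%, 4.37 to 7.08) and 0.449% of windows with no start site. The BEAF-32 core was in 45.2% (39.3 to 51.3), against 33.4% (30.7 to 36.2) of one-strand windows. The E-box was in 15.6% (11.7 to 20.5), against 8.63% (7.12 to 10.4). The TATA box letters TATAAA were in 48.3% (42.3 to 54.3), against 36.4% (33.6 to 39.3), alongside the lower G and C.

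Divergent promoters with no Brinker summit carried the DRE and the BEAF-32 core about as often. At the midpoints of the 2720 pairs, 24 of 262 windows of pairs with a summit held a DRE (9.16%, 6.23 to 13.3), against 206 of 2458 windows of pairs without one (8.38%, 7.35 to 9.54). The BEAF-32 core was in 42.4% (36.5 to 48.4) against 40.5% (38.6 to 42.4). The E-box was in 17.9% (13.8 to 23) against 12.2% (10.9 to 13.5), where the intervals do not overlap. Nor do they for the AP-1 site TGANTCA (N for any base), at 7.63% (5 to 11.5) against 3.78% (3.1 to 4.61). Around the summits AP-1 was in 4.56% of windows. In all, 13 motifs were searched. At all 19607 annotated protein-coding TSSs the DRE share was 6.43%, the BEAF-32 core share 37.2% and the E-box share 13.5%.

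The next elements were rarer than the DRE around divergent-promoter summits. GAGA letters (GAGAGA, bound by the GAGA factor Trl) were in 4.94% (2.91 to 8.27) of divergent-promoter windows, against 17.7% (15.6 to 20.1) of one-strand windows. At midpoints they were in 7.63% (5 to 11.5) of windows of pairs with a summit and 5.25% (4.43 to 6.2) of windows of pairs without one. The initiator letters TCAGTT were in 9.89% against 13.2% of one-strand windows, and Motif 1, bound by M1BP, in 7 of 263 (2.66%, 1.3 to 5.39) against 1.89% (1.24 to 2.87). The silencer element that Mad, Medea and Schnurri bind was in 0 of 263 windows (Wilson upper bound 1.44%) and 1 of 1112 one-strand windows.

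The share of windows with a Brinker site was lower at these peaks than at other peaks, pairs without a summit and all TSSs. Only from all TSSs did it differ beyond counting error. Those windows are centred on the TSS and averaged 42.3% G and C, against 31.9% around divergent-promoter summits. How much of the contrast goes with base composition or centring was not tested. The site lay within 100 bp of 32 of 263 summits (12.2%, 8.75 to 16.7). The share was 15.3% (13.3 to 17.5) of one-strand summits and 14% (12.5 to 15.6) of summits with no start site. It was 13.6% (12.3 to 15) of midpoints of pairs without a summit and 21.7% (21.1 to 22.3) of all TSSs. At the midpoints of pairs with a summit the site was in 11.5% (8.14 to 15.9). Copies were rarest at the summit, at 7 in the 50 bp to its left and 2 in the 50 bp to its right over the 263 peaks. In the outermost bins there were 29 on the left and 26 on the right. One-strand peaks had 3.87 and 4.5 copies per 100 peaks next to the summit, where divergent-promoter peaks had 2.66 and 0.76. The site is rich in G and C and the profile of its copies follows the base composition; how much of the dip that accounts for was not tested.

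The site was also rarest at the strongest peaks. It was in 2 of the 52 strongest windows (3.85%, 1.06 to 13), where G and C averaged 29.8%, and in 11 of the 53 weakest (20.8%, 12 to 33.5), where they averaged 33.2%. These intervals overlap slightly. In the groups between, the share was 13.2%, 13.5% and 9.43% in order of falling signal, so it did not rise steadily. Peaks of the strongest group had a median width of 268 bp, against 416 bp in each other group. Peaks with the site had a median signal of 127 and those without it 150. For the DRE those medians were 150 and 146. The DRE was also least frequent in the strongest windows, in 4 of 52 (7.69%, 3.03 to 18.2), against 11.3% to 17.3% in the weaker groups of about that size. The BEAF-32 core was in 28.8% (18.3 to 42.3) of the strongest windows, against 45.3% to 52.8% in the others. The strongest window with the Brinker site was that of CG8360/CG8372, at 771.

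**Figure D4:**
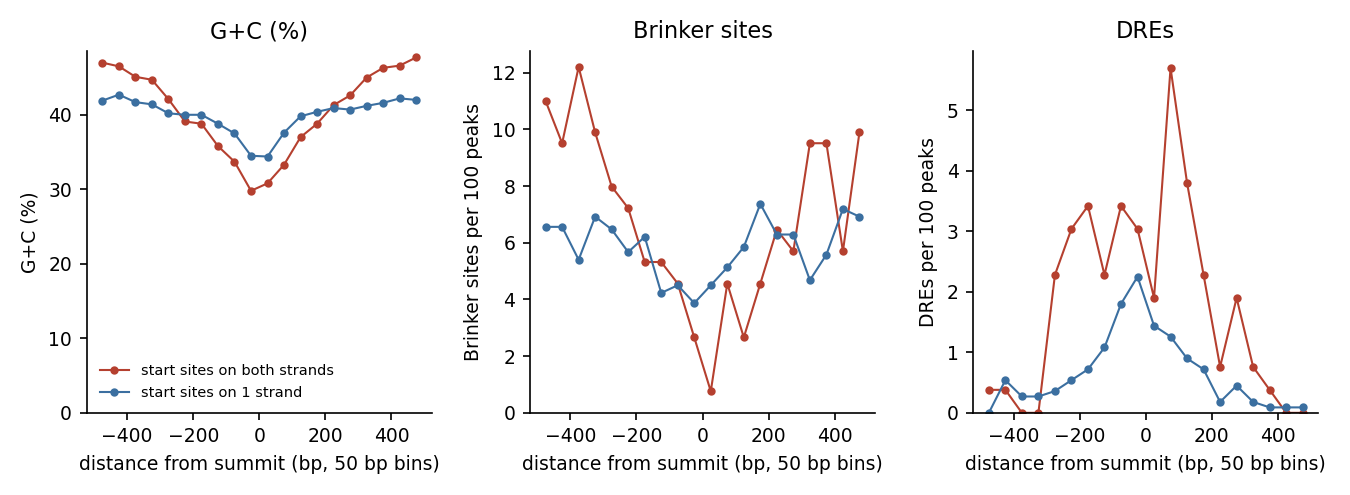
Percent G and C (left), Brinker sites per 100 peaks (middle) and DREs per 100 peaks (right) in 50 bp bins by distance from the summit (x axis, bp), for divergent-promoter peaks (red) and one-strand peaks (blue). The red G and C curve dips to 29.8% at the summit, Brinker sites fall to 0.76 per 100 peaks beside it, and DREs lie mostly within 250 bp of it.

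Gene lists were compared by 1 measure, the share of a list's paired genes at such a peak, which was 9.92% (510 of 5141) over all paired genes. Mitochondrial ribosomal proteins had 10 of 58 (17.2%, 9.64 to 28.9), and oxidative phosphorylation had 8 of 44 (18.2%, 9.51 to 32). In the strongest entries of a replicate alone, the ribosomal list had 13 in replicate 3 and 10 in replicate 4, and the oxidative phosphorylation list 9 and 5. The peak of mRpL24 had a signal of 400 in the IDR list, 217 in replicate 3 and 185 in replicate 4. The peak of mRpS6 had 250.03, 94.8 and 149. Among oxidative phosphorylation genes, SdhC, which encodes a membrane anchor of succinate dehydrogenase, had 180, 106 and 75.4. COX8 and COX5A, subunits of cytochrome c oxidase, had 162 and 130 in the IDR list and no entry in replicate 4. Both intervals of these lists hold the share of all paired genes, so neither list stood clear of it.

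Lists for other general functions had 0 to 7 genes at these peaks. Cytoplasmic ribosomal proteins had 7 of 55 (12.7%), led by RpL7 at 235 in the IDR list; the list was drawn up by name and counts RpLP0-like, at 196. General transcription had 4 of 54 (7.41%), led by MED7, a Mediator subunit, at 257 and Polr2B, a subunit of RNA polymerase II, at 253; in the replicates alone it had 10 in replicate 3 and 5 in replicate 4. Splicing had 3 of 26 (11.5%), led by snRNP-U1-C at 290. Translation initiation factors had 2 of 21, led by eIF4EHP, a cap-binding translational repressor, at 366. Proteasome subunits had 1 of 26, aminoacyl-tRNA synthetases 2 of 24 and the ubiquitin pathway 2 of 25. Mitochondrial import had 2 of 5, which were Tim9a at 135 and Tom7 at 107. The cell cycle list had 2 of 21, namely dup, a replication licensing factor, at 118 and Cdk1 at 102, with 7 in replicate 3 alone and 2 in replicate 4 alone. The insulator and promoter-binding factors had 1 of 10, which was Chro. Heat shock and chaperonin genes had 0 of 17 (upper bound 18.4%) and Polycomb and trithorax group genes 0 of 14 (21.5%).

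Of the 26 listed Brinker and Dpp targets only 2 were paired, and magu, which encodes a secreted protein that extends the Dpp gradient, was at a divergent-promoter peak. Its signal was 119 in the IDR list, 74.97 in replicate 3 and 42.3 in replicate 4. In the Dpp pathway list 2 of 12 paired genes were at such a peak, magu and dlp. dlp, a glypican that carries ligands across cells, had 182, 82.6 and 100. By comparison 12 of the 33 Dpp pathway genes and 4 of the 26 targets had an IDR summit within 500 bp of some TSS. Over all protein-coding genes it was 1458 of 13945 (10.5%). Other lists ranged widely by this measure, with 10 of 22 Hippo genes, 8 of 23 Notch genes and 3 of 48 proteasome genes.

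In growth control, 4 of 11 paired genes of the Hippo list were at a peak (36.4%, 15.2 to 64.6), all at low signal. sd, the TEAD factor that yki works with, had 132 in the IDR list, 66.8 in replicate 3 and 58.2 in replicate 4. yki, the pathway's coactivator, had 107 in the IDR list and no entry in replicate 4. An overlapping replicate 3 entry had 73.0, but the nearest replicate 3 summit was 355 bp away. Akt, the kinase of the insulin pathway, had 90.3 in the IDR list and wts, the kinase that phosphorylates yki, had 88.6. The share was set by 4 genes, and all 4 peaks were below the median of 147. In the Notch list 1 of 9 paired genes, E(spl)mdelta-HLH, a repressor induced by Notch, had 144. In the ecdysone list 1 of 4, the coactivator gene tai, had 213.

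**Figure D5:**
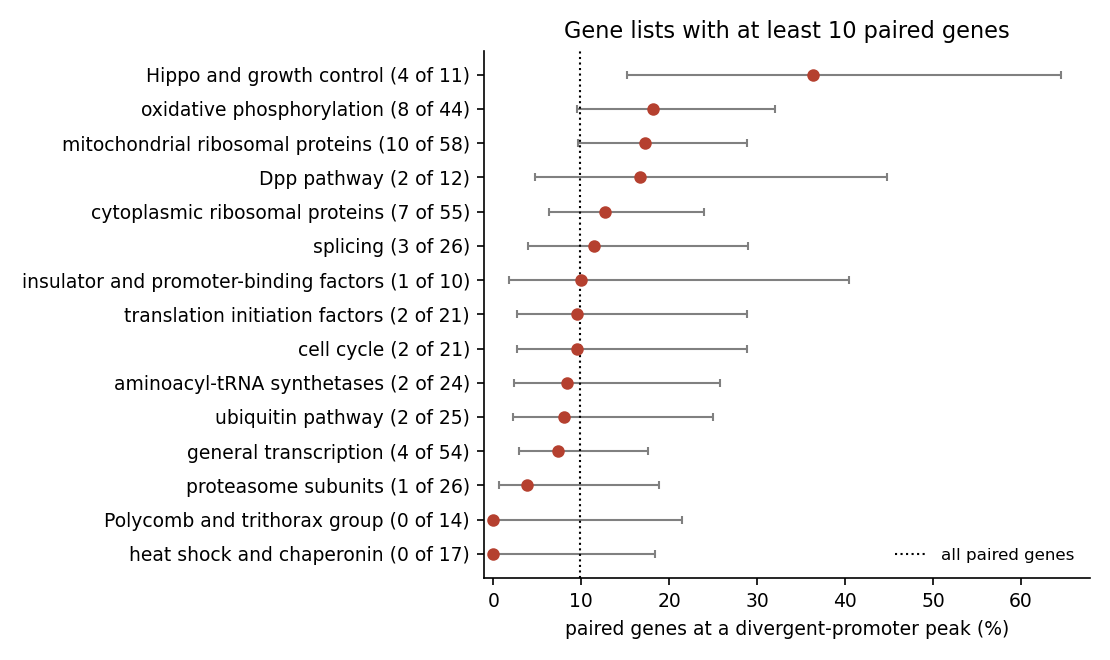
Share of each list's paired genes at a divergent-promoter peak (x axis, percent) with Wilson 95% intervals, for lists with at least 10 paired genes; counts stand beside the names and the dotted line marks 9.92% for all paired genes. Hippo and growth control, at 36.4%, has its whole interval right of the line, from 4 genes; each other interval covers it.

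The 500 bp limit cut through few peaks. The farther TSS lay in the last 50 bp inside the limit in 10 peaks and up to 50 bp beyond the limit in 5. Just inside were eIF3c/CCHa1-R, at 494 bp with a signal of 200, ath/CG5727 at 491 bp with 82.9 and CG15082/CG15097 at 480 bp with 132. Just outside were CG12065/spirit, at 511 bp with 111, CG10802/CG10804 at 518 bp with 111 and Galphao/CG12895 at 527 bp with 97.4. The weakest peaks were RpS21/CG3104 at 84.5, CG8788/alc at 84.4 and ath/CG5727 at 82.9. The peaks were spread over all arms, with the highest share on 3L (80 of 846, 9.46%) and the lowest on X (24 of 471, 5.1%, 3.45 to 7.47), and 82 of the 263 lay within 10 kb of another.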

How the data were processed

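The authors deposited peak lists in the narrowPeak layout. For dm6 the lists of replicate 3, replicate 4, the pooled alignments and the IDR procedure were used, 4 in all, and the signal is the authors' deposited value in the signal column. Per the labels' notes a control alignment was used. No source used here names the caller, its version, the normalization or the IDR threshold. The dm3 lists were not used here. Depth is unknown from peak lists.

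The summit was the deposited offset from the peak start. TSSs were those of all protein-coding transcripts of Ensembl release 115 (BDGP6.54), 19607 distinct positions in 13945 genes on 6 arms; no peak ran past an arm's end. Peaks were compared by overlap of at least 1 bp. Shares carry 95% Wilson intervals and densities exact Poisson intervals. With 1 group no test over samples could be made, so values are descriptions with both replicates beside them. The classification was checked on simulated start sites. Motifs were searched within 100 bp of the summit on both strands (Python 3.11.15, numpy 2.4.6, pandas 2.3.3, scipy 1.17.1, matplotlib 3.10.9).

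The peaks named are the genes of the 12 strongest, the largest replicate ratios, those with no entry in 1 replicate, the weakest, those at the limits of distance, the closest and widest TSSs, the strongest pairs with more than 1 peak and up to 3 of each of 19 gene lists; of these, the text gives a selection. Wider sequence windows had been foreseen, but the printed ones end at the TSSs so as to hold no annotated protein-coding exon. Of the list names, 5 were matched by synonym and 5 found no match and were left out. The members and lists were chosen with earlier results of these data known. The comparison of summits per Mb was added after seeing the data.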

Additional observations from a re-analysis of the deposited data

How the results depend on the processing

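The number of divergent-promoter peaks was 160 with 250 bp to each TSS in place of 500 bp. It was 169 when only the IDR peaks above the median signal were kept (the stronger peaks). With 1 replicate alone it was 256 to 377, taken from the 3380 strongest entries of that replicate's own list. These are the single-replicate lists already used above, and no IDR list was remade without a replicate. The share of peaks at divergent promoters was 4.73% at 250 bp, 11.3% at 1000 bp and 7.57% to 11.2% with 1 replicate alone. The ratio of median signals to one-strand peaks, 1.19, was 1.32 at 250 bp, 1.1 at 1000 bp and 1.13 to 1.2 with 1 replicate alone. The share of paired genes with a summit was 8.29% among the stronger peaks and 12.4% to 17.9% with 1 replicate alone. The density ratio was 2.83 at 250 bp, 1.45 at 1000 bp, 2.32 among the stronger peaks and 1.99 to 2.53 with 1 replicate alone.

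The median distance between the TSSs, 302 bp, was 252 bp at 250 bp, 379 bp at 1000 bp, 294 bp with 1 TSS per gene and 308 bp with interval midpoints as summits. It was 305 bp among the stronger peaks, 312 bp for head-to-head pairs and 295 to 299 bp with 1 replicate alone. The share of summits between the TSSs was 76.6% at 1000 bp, 75.7% with 1 TSS per gene and 85.8% among the stronger peaks. The Brinker site share was 11.2% at 250 bp and among the stronger peaks, 13.6% at 1000 bp and 10.5% to 11.4% with 1 replicate alone. It was 3.04% and 26.6% with 50 and 200 bp on each side of the summit. The DRE share was 10.2% to 13% with 1 replicate alone, and 4.94% and 22.8% with 50 and 200 bp on each side. The SD of the log2 replicate ratio was 0.617 with replicate summits within 100 bp and 0.517 among the stronger peaks, where 18 peaks had no entry in replicate 4. Of 57 values of gene lists, 14 moved by over 1.5 times. The motif shares of one-strand peaks and of pairs were not recomputed under these alternatives.

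No paired analysis was possible because the series has 1 group. The replicates differ in how many divergent promoters they list, and without a depth or coverage that difference was not tested further.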

Other observations

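Some short words of A and T were more frequent around divergent-promoter summits than around the midpoints of pairs without a summit. Within 100 bp of the summit TTAAAA or its complement was in 65.4% of windows, against 52.3% at those midpoints and 48.9% of one-strand windows. AATATA was in 54%, against 41.8% and 39.8%, and AATAAA in 66.2%, against 54.3% and 48.3%. CAAATG was in 10.6%, against 18.1% and 16%, and CTTTTC in 11%, against 18.2% and 18.3%. These 6-letter words were picked for their difference, and the windows differ in G and C by the amounts given in the report. They also differ in centring, and these words were not counted at midpoints of pairs with a summit. There TATAAA was in 42.4%, against 48.3% at summits and 38.8% at the other midpoints. AAAAAA was in 46.2%, against 50.2% and 46.6%.

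The site of the early factor Zelda (CAGGTA) was in 6 of the 263 windows, with a median signal of 276, and 4 of the 6 were among the 52 strongest peaks. This was noticed after seeing the values. Peaks whose 5′ ends overlap were 8, and the strongest was Cyt-c-d/CG31808, with a signal of 291 in the IDR list, 139 in replicate 3 and 149 in replicate 4. COX5A/glo and Mst85C/Nmdmc were the 2 of these 8 with no entry in replicate 4.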
